A study of Mus musculus with 18 samples.

Results

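The cytosolic ribosomal protein genes were followed in adipocytes in which the transcription factor IRF3 was made active or deleted. Members were chosen by gene symbol and not by expression, as protein-coding genes named Rpl or Rps with a number, together with Rpsa, Rplp0, Rplp1, Rplp2 and Fau and without the ribosomal S6 kinases. This gave 84 of the 33440 genes in the data. Of these, 43 encode proteins of the large ribosomal subunit, 3 encode the proteins of its P-stalk (Rplp0, Rplp1 and Rplp2), 32 encode proteins of the small subunit (Rpsa and Fau included) and 6 are paralogs of another member (Rpl3l, Rpl7l1, Rpl10l, Rpl22l1, Rpl39l and Rps27l).

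Ribosomes are built from ribosomal RNA and a set of proteins, most of them needed in equal amounts, and making them is among the largest costs of a cell. In mammals most ribosomal protein mRNAs start with a C followed by a run of pyrimidines, the terminal oligopyrimidine or TOP motif, through which mTORC1 and the RNA-binding protein LARP1 control how many of these mRNAs are on ribosomes. Insulin and nutrients act on mTORC1 in adipocytes. Several ribosomal protein mRNAs are also used as reference genes for qPCR in adipose tissue.

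SVF-derived adipocytes were cells of the stromal vascular fraction (SVF) of inguinal white adipose tissue (iWAT), differentiated in culture. The donors were C57BL/6 mice aged 4 to 6 weeks with an allele for a constitutively active form of Irf3, expressed after Cre recombination. Cells transduced with AAV-GFP on day 6 are called WT (3 libraries) and cells given AAV-GFP-Cre are called FI3OE (3 libraries). Both were harvested on day 8, so that the groups differ by Cre as well as by the active allele and the WT cells carry the allele unrecombined. TRAP (translating ribosome affinity purification) libraries hold RNA bound to ribosomes of adipocytes in epididymal white adipose tissue (eWAT) of C57BL/6 mice fed a high-fat diet (HFD) for 8 weeks at thermoneutrality. Both TRAP groups carry the Ad-NuTRAP transgenes, in which Adipoq-Cre switches on an EGFP-tagged L10a, the protein of the member Rpl10a. FI3KO mice (6 libraries) also lack Irf3 in Adipoq-Cre cells and WT mice (6 libraries) do not. The age of the TRAP mice is not given in the sources used here. The labels call every sample a biological replicate.

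The 6 SVF libraries held 21541334 to 36932452 reads and the 12 TRAP libraries 25259869 to 40490283. Irf3 transcript ENSMUST00000107834.1 had 0 reads in all 6 FI3KO TRAP libraries against 164 to 388 in WT TRAP, and 1368 to 2193 in FI3OE against 539 to 640 in WT SVF-derived adipocytes. Over the whole gene Irf3 was lower in FI3KO TRAP (log2 fold change -0.35, adjusted p = 0.0198) and higher in FI3OE (0.73), which is the direction of the labels. Some of its other transcripts were higher in FI3KO TRAP, such as ENSMUST00000208958.1 with a median of 141.2 reads against 3.13 in WT. None of 10 adipocyte markers was at 0 in any group. SVF cultures also held markers of macrophages (summed TPM 3085 to 3258 over 12 genes) and of fibroblasts and progenitors (8869 to 8919 over 8 genes in FI3OE and 7521 to 7664 in WT). In TRAP the macrophage sum was 18.6 to 50.9 in FI3KO and 52.2 to 137.3 in WT, no macrophage marker was at 0 in either group, and 9 of the 11 tested were lower in FI3KO. Fibroblast markers summed to 376.8 to 641.4 in FI3KO TRAP and 577.5 to 1274 in WT TRAP. The groups overlap in this sum, and of the 8 markers 1 was higher and 3 were lower in FI3KO. In these bulk libraries fewer cells of a type and less RNA per cell cannot be told apart. In TRAP the tagged ribosomes come from Adipoq-Cre cells, and how marker RNA of other cell types entered these libraries was not tested. By chi-square per degree of freedom (difference beyond counting noise), FI3KO TRAP replicates 1 and 2 stood apart from replicates 3 to 6. Pairs across these sets were at 110.7 to 267.9 and pairs within 3 to 6 at 16.9 to 86.3. In WT TRAP these ranges overlapped, at 74.4 to 129.9 across the sets and 8.41 to 126.3 within 3 to 6. The effect of FI3KO differed between these sets for 26.5% of all genes (3613 of 13624, interaction term in edgeR). No label names the split. The term counts WT replicates 1 and 2, the closest pair of libraries, as separate mice, which is not shown. It was not fitted with these summed.

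Ribosomal protein mRNAs took a larger share of the reads of cultured adipocytes than of ribosome-bound RNA from eWAT. They held 1.29% ± 0.037 (SD, n = 3) of all reads in WT SVF-derived adipocytes and 1.25% ± 0.022 (n = 3) in FI3OE. The 3 WT libraries lay at 1.27, 1.27 and 1.33% and the 3 FI3OE libraries between 1.24 and 1.28%. These ranges overlap. In WT TRAP the share was 0.620% ± 0.049 (SD, n = 6), with a lowest library of 0.563, a median of 0.623 and a highest of 0.694%. FI3KO TRAP libraries held 0.686% ± 0.038 (n = 6), from 0.633 through a median of 0.690 to 0.737%. The FI3KO values tended to be the higher ones but their range overlaps that of WT. Members are short, with a median mean transcript length of 633 nt among those tested in TRAP against 2365 nt for all genes tested there. Per unit of length they therefore weigh more, at 5.41% of TPM in WT SVF, 5.09% in FI3OE, 2.93% in WT TRAP and 3.29% in FI3KO TRAP. On the TPM scale every FI3OE library (5.06 to 5.14%) lay below every WT SVF library (5.34 to 5.56%), and the TRAP groups overlapped. The share of reads on rRNA-like and mitochondrial genes, which is part of the denominator, was 6.86 to 7.55% in the SVF libraries, 0.474 to 4.80% in WT TRAP and 0.723 to 9.64% in FI3KO TRAP. FI3KO TRAP replicates 1 and 2 were at 9.64 and 6.71%, and WT TRAP replicates 1 and 2 at 1.47 and 1.44%.

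**Figure D1:**
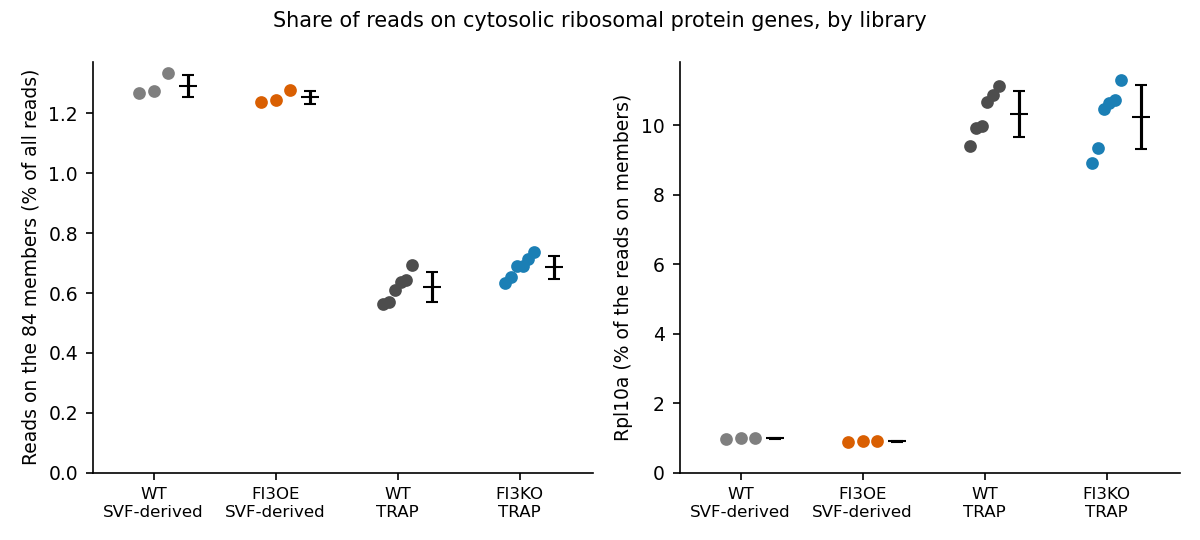
Percent of all reads on the 84 ribosomal protein genes (left) and Rpl10a reads as percent of the reads on these genes (right). Points are libraries and bars are mean ± SD. On the left the 2 SVF groups sit near 1.3% and the TRAP groups between 0.563 and 0.737%, and on the right Rpl10a is near 1% in the SVF groups and near 10% in both TRAP groups.

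Rpl10a, whose protein is tagged in the TRAP mice, stood out in the TRAP libraries. It made up 10.3% ± 0.665 of member reads in WT TRAP and 10.2% ± 0.909 in FI3KO TRAP, against 0.986% in WT and 0.902% in FI3OE SVF-derived adipocytes (means). The tagged L10a of the NuTRAP mice and the gene's own mRNA were not told apart in the quantification. Without Rpl10a, members held 0.556% of reads in WT TRAP and 0.616% in FI3KO TRAP (means), and 1.28% and 1.24% in WT and FI3OE SVF-derived adipocytes.

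Levels of single members spanned 21.5-fold in WT SVF-derived adipocytes and 35.7-fold in WT TRAP, or 24.6-fold there without Rpl10a. On the TPM scale, which corrects for length, the 78 members that are not paralogs had a median of 600 TPM in WT SVF-derived adipocytes and ranged from 111.9 TPM (Rpl36a) to 2407 TPM (Rplp0). The 4 highest there were Rplp0, Rpl41 (1957 TPM), Rplp1 (1877 TPM) and Rps2 (1547 TPM). In WT TRAP the median was 309 TPM and the 5 highest were Rpl10a (3036 TPM), Rpl41 (2094 TPM), Rplp2 (873 TPM), Rplp1 (699 TPM) and Rps14 (639 TPM), with Rpl36a again lowest at 85.0 TPM. The order of members was similar in these WT groups, with a Pearson r of 0.74 between log2 mean TPM values over the 78 members and 0.83 without Rpl10a (Spearman rho 0.79 over the 78). These correlations are across genes, which share libraries, length and base composition, and carry no test.

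The paralogs were below the member they resemble in SVF-derived adipocytes. Rps27l, a paralog of Rps27 that p53 is known to induce, stood at 228 ± 3.51 TPM in WT SVF-derived adipocytes against 677 TPM for Rps27. In WT TRAP the libraries of these genes overlapped, with 195.4, 203.7 and 221.6 TPM (lowest, median, highest) for Rps27l and 22.2, 229.1 and 314.1 TPM for Rps27, where the lowest library is one in which most reads went to the near-identical Rps27rt. Rpl7l1, which acts in ribosome assembly, was at 89.6 TPM against 667 TPM for Rpl7. Rpl39l, a form known from testis, was at 11.4 TPM against 142 TPM for Rpl39, and in WT TRAP its libraries held 0 to 2 reads against 53 to 71 reads in WT SVF-derived adipocytes. Rpl3l, a muscle form, and Rpl10l, a testis form, had at most 5 reads in any library and were not tested in any comparison, and Rpl39l was not tested in FI3KO against WT TRAP. Rpl22l1 can replace Rpl22 in the large subunit. It was at 81.6 TPM against 188 TPM for Rpl22 in WT SVF-derived adipocytes. In WT TRAP it was at 105.9 ± 20.5 TPM against 93.7 ± 9.0 TPM (SD, n = 6). There Rpl22l1 was below Rpl22 in replicates 1 and 2 (76.9 and 83.5 against 92.0 and 88.6 TPM). It was above Rpl22 in each of replicates 3 to 6.

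**Figure D2:**
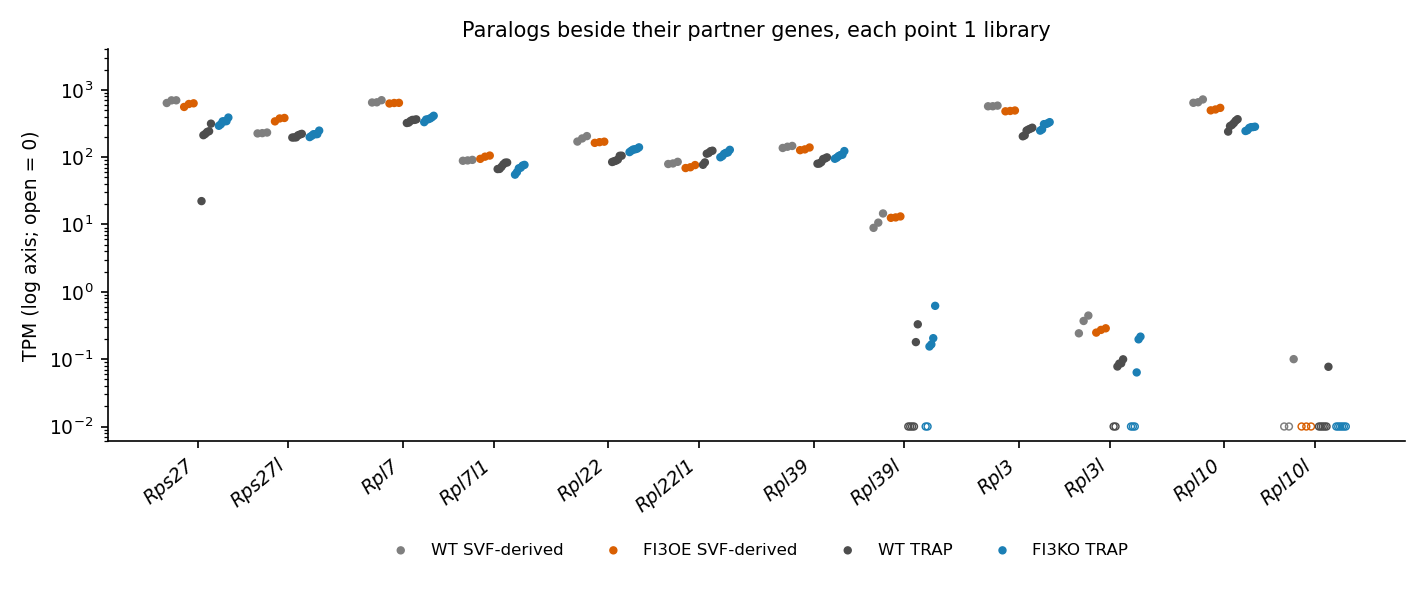
TPM of each paralog and of the member it resembles in the 4 groups, on a log axis with open points for libraries at 0. Rpl22l1 lies below Rpl22 in WT TRAP replicates 1 and 2 and above it in replicates 3 to 6. Rps27l overlaps with Rps27 in WT TRAP, whereas Rpl7l1, Rpl39l, Rpl3l and Rpl10l lie below their partners.

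To show what the TOP motif looks like in these genes, 30 bases around the annotated start of transcription are printed for members on which the results below turn, 15 bases before the start and 15 from the start base on (RefSeq, GRCm38.p6, 5′ to 3′ on the strand of the gene). Capitals mark the longest run of pyrimidines (C and T) in each. The first 6 have a C at the start base with 4 pyrimidines after it and the last 4, among them members with the largest changes, do not.
Rplp2 (chr7:141447636-141447665, plus strand): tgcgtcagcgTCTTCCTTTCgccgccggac
Rps6 (chr4:86857353-86857382, minus strand): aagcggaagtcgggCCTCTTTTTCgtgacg
Fau (chr19:6057932-6057961, plus strand): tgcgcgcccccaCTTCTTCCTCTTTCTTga
Rps21 (chr2:180257364-180257393, plus strand): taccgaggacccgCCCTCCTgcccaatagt
Rps27 (chr3:90213634-90213663, minus strand): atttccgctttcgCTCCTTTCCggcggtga
Rpl35a (chr16:33056467-33056496, plus strand): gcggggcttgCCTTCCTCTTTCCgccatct
Rpl22 (chr4:152325711-152325740, plus strand): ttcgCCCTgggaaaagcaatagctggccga
Rpl41 (chr10:128549154-128549183, minus strand): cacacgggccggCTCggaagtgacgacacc
Rpl22l1 (chr3:28805493-28805522, plus strand): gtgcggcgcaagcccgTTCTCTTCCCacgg
Rps27l (chr9:66946071-66946100, plus strand): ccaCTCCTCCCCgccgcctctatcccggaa

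Of the 84 members, 64 matched the table of start sites by symbol. A C at the start base with 4 pyrimidines after it was found in 14 of them (21.9%), in 0 of 69 mitochondrial ribosomal protein genes and in 3.01% of 27025 genes. A run of 8 or more pyrimidines in the 30 bases was found in 28 members (43.8%), in 13.0% of mitochondrial ribosomal protein genes and in 13.9% of all genes. The annotated start can be a few bases from the start in use, so no match says only that the letters are not in this window. Another 2 motifs were searched on both strands in the 300 bases from 250 before to 50 after the start. CCGGAAG, the core bound by ETS factors, was found in 26 members (40.6%), in 37.7% of mitochondrial ribosomal protein genes and in 9.93% of all genes. GAAANNGAAA, part of the element bound by interferon regulatory factors, was found in 7 members (10.9%; Rpl4, Rpl5, Rpl27a, Rpl38, Rps7, Rps19 and Rps23) and in 3.99% of all genes. A match is a description of the letters and was not tied to binding.

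The first comparison asks how the members respond when IRF3 is active in cultured adipocytes. Few of them moved and the changes were small. Of 82 members tested, 6 were higher in FI3OE (7.32%) where 20.2% of all 16105 genes tested were, and 13 were lower (15.9%) where 16.8% of all genes were, at an adjusted p of at most 0.05 in edgeR's quasi-likelihood test. None of the 82 also passed an absolute log2 fold change of 1, the study's second cutoff, which 3.62% of all genes did. The median log2 fold change of members was -0.04 against -0.0047 over all genes, and 56 of 82 values were below 0. In 8 members every FI3OE library was above every WT library (25.7% of all genes) and in 20 every FI3OE library was below (23.8% of all genes). The count of lower members was 6 without FI3OE replicate 1 or WT replicate 3, 7 without FI3OE replicate 3 and 0 when all 18 libraries of the series were fitted together. It was 18 with library totals (21.95%, against 18.5% of all genes) and 17 with the length trend removed (20.7%, against 16.9%). In these fits the share of members called lower was above that of all genes, unlike in the main fit. The summed level of fibroblast and progenitor markers was higher in every FI3OE library than in any WT library, with 2 of the 8 markers higher and 2 lower, and its part in these changes was not tested.

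Among the higher members the paralog Rps27l changed most. Its libraries lay at 72.3, 72.8 and 65.7 CPM (normalised counts after TMM scaling) in FI3OE and at 41.6, 41.3 and 42.5 CPM in WT, a log2 fold change of 0.75 (SE 0.048, adjusted p = 4.06e-07). The groups are far apart compared with their spread. Rps27, the member it resembles, was not called (-0.09, adjusted p = 0.194). Rpl7l1, the other paralog that rose, was at 74.5, 70.5 and 68.3 CPM in FI3OE and 59.4, 58.5 and 62.5 CPM in WT (log2 fold change 0.24, SE 0.045, adjusted p = 0.00149).

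The rises among the other members were of a similar, small size. Rps19, a small-subunit protein whose loss causes Diamond-Blackfan anaemia, was at 166.8, 173.0 and 166.0 CPM in FI3OE against 142.9, 144.6 and 147.4 CPM in WT (log2 fold change 0.22, adjusted p = 0.000657). In Rps19 and Rpl9 (0.22, adjusted p = 0.00257) the groups did not overlap. Rplp2, an acidic protein of the stalk that recruits translation factors, was at 115.5, 123.4 and 118.5 CPM against 114.5, 106.0 and 106.9 CPM (0.13, adjusted p = 0.0374). Its call was lost in 8 of the alternatives tried.

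The 13 lower members came from both subunits, 7 from the large and 6 from the small. Rpl10, which joins the large subunit late and is needed for the subunits to unite, fell most, from 170.7, 162.2 and 187.8 CPM in WT to 138.7, 147.7 and 133.9 CPM in FI3OE (log2 fold change -0.31, SE 0.056, adjusted p = 0.00113). Rpl22, an RNA-binding protein on the outside of the large subunit, was at 47.5, 52.0 and 51.0 CPM in FI3OE and 57.5, 58.6 and 65.3 CPM in WT (-0.27, SE 0.056, adjusted p = 0.00271). With an offset for the average length of the gene's transcripts the Rpl22 value became -0.12 (adjusted p = 0.301). In both genes the groups did not overlap.

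Rpl23 was at 107.0, 107.8 and 98.4 CPM in FI3OE against 116.9, 116.4 and 124.2 CPM in WT (-0.19, adjusted p = 0.00631). Rps26, which lies at the mRNA exit channel, was at 66.5, 72.8 and 66.4 CPM against 80.7, 72.9 and 79.6 CPM (-0.18, adjusted p = 0.0149). For Rps24 the values were 154.2, 162.1 and 158.1 CPM against 180.5, 176.2 and 176.2 CPM (-0.17, adjusted p = 0.00372), and with the average transcript length offset Rps24 came to -0.08 and was not called. Among these the groups of Rps26 nearly touch, and its call was lost without FI3OE replicate 1 or 3 or WT replicate 1 or 3 (-0.17 to -0.16). The others are clearly separate. Falls were also seen for Rpl3, Rpl10a, Rpl5, Rps3a1, Rps6, Rps25 and Rpl8, with log2 fold changes from -0.16 to -0.10. None of the 6 members listed as common qPCR references (Rplp0, Rps18, Rpl13a, Rpl19, Rpl4 and Rpl32) was called, the smallest adjusted p being 0.0736 for Rpl19 (0.11).

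**Figure D3:**
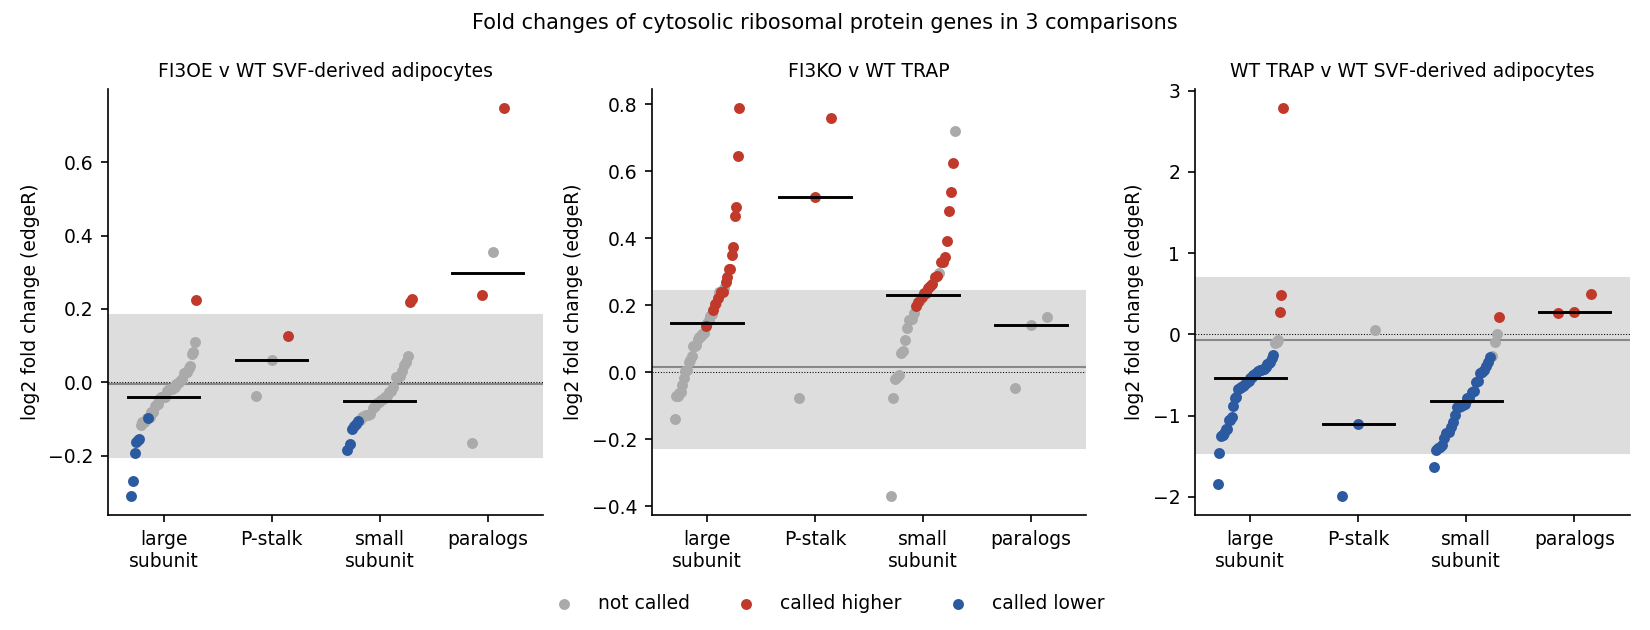
Log2 fold change of every member tested, by subunit class, in FI3OE against WT SVF-derived adipocytes, FI3KO against WT TRAP, and WT TRAP against WT SVF-derived adipocytes. The grey band spans the lower to the upper quartile of all genes tested with their median as a line, and black bars are class medians (Rpl39l enters the paralog median in the right panel but lies off the axis). Members lie close to 0 on the left, mostly above it in the middle and mostly below it on the right.

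The second comparison asks the same of ribosome-bound RNA when Irf3 is deleted in adipocytes of HFD-fed mice. All members that were called rose. Of 81 tested, 35 were higher in FI3KO TRAP (43.2%) where 19.1% of all 13624 genes tested were. With library totals 21 were (25.9%, against 14.4% of all genes) and with each library's trend on transcript length removed 14 were (17.3%, against 18.1%). WT replicates 1 and 2 were much closer to each other than any other pair within a TRAP group, and with these summed as 1 library 28 were called higher and the median was 0.156. None was lower (1, Rpl10, with the length trend removed) where 18.3% of all genes were, with 0 members below 0 at an unadjusted p under 0.05 and 0 called lower by DESeq2. The lowest value was that of Rps26 (-0.37, adjusted p = 0.211). No member passed an absolute log2 fold change of 1, which 6.61% of all genes did. The median log2 fold change of members was 0.18 against 0.02 for all genes tested. In 18 members every FI3KO library lay above every WT library, which held for 7.47% of all genes, and in 0 every FI3KO library lay below, which held for 8.53%.

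By class, 17 of 32 small-subunit members rose (median 0.23), as did 16 of 43 large-subunit members (median 0.15) and 2 of 3 stalk members. None of the 3 paralogs tested was called, with log2 fold changes from -0.05 to 0.16. Rpl22 rose most. Its FI3KO libraries had a lowest value of 50.6, a median of 59.4 and a highest of 63.9 CPM, and its WT libraries 29.5, 33.4 and 37.7 CPM, a log2 fold change of 0.79 (SE 0.071, adjusted p = 2.74e-05). The ranges do not overlap. The value ranged from 0.53 to 0.89 over the alternatives, with 0.53 (adjusted p = 0.00014) when the average transcript length was taken into account, and the call was lost only with replicates 1 and 2 alone (adjusted p = 0.0557). In TPM, which divides by length, Rpl22 was at 129.6 ± 7.2 in FI3KO and 93.7 ± 9.0 in WT (SD, n = 6 each).

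Most Rpl22 reads were assigned to long transcripts of the gene, and the TRAP groups lay apart in these. The 2 transcripts of 2048 and 2051 nt together had a lowest value of 38.3, a median of 48.2 and a highest of 52.8 RPM (reads scaled to the size of the library) in FI3KO TRAP, against 22.3, 25.7 and 29.7 in WT TRAP. The transcript of 474 nt had 8.16, 9.47 and 10.8 RPM in FI3KO and 4.91, 7.31 and 9.54 in WT, where the groups overlap. In SVF-derived adipocytes the long forms ranged from 28.8 to 33.1 RPM in FI3OE and from 37.8 to 43.7 in WT, while the short form ranged from 16.9 to 17.5 and from 15.0 to 19.0. The long forms held 78.1 to 84.2% of Rpl22 reads in FI3KO TRAP, 71.3 to 79.9% in WT TRAP, 60.6 to 64.6% in FI3OE and 64.9 to 69.8% in WT SVF-derived adipocytes. These splits are Salmon's estimates and were not tested.

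The acidic stalk proteins rose with Rpl22. Rplp2 was at 118.4, 126.0 and 180.6 CPM (lowest, median, highest) in FI3KO TRAP against 73.0, 79.1 and 97.8 CPM in WT TRAP, a log2 fold change of 0.76 (SE 0.107, adjusted p = 0.000328). Rplp1, its partner on the stalk, was at 96.2, 107.7 and 123.2 CPM against 69.0, 74.1 and 83.4 CPM (0.52, SE 0.068, adjusted p = 0.000213). In both every FI3KO library was above every WT library. Rplp0, the base of the stalk, did not follow them, with a log2 fold change of -0.08 that was not called.

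Several of the shortest members rose as well. Rpl41, which encodes the smallest ribosomal protein, was at 288.7, 312.9 and 545.0 CPM in FI3KO against 201.4, 229.5 and 261.7 CPM in WT (0.65, SE 0.145, adjusted p = 0.00441). Rps21, a protein of the small-subunit surface, was at 18.6, 19.8 and 30.001 CPM against 13.9, 14.1 and 17.7 CPM (0.62, SE 0.130, adjusted p = 0.00290). Rps28, at the mRNA exit, was at 19.0, 21.4 and 25.97 CPM against 14.2, 14.6 and 16.6 CPM (0.54, SE 0.080, adjusted p = 0.000409). The groups did not overlap in any of these, and FI3KO replicates 1 and 4 were the highest libraries of Rpl41, Rps21 and Rplp2. Rpl35a (0.49), Rps29 (0.48), Rpl13a (0.47), Rps12 (0.39) and Rpl37a (0.37) followed them in size.

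The other called members rose by less. Rpl3, a core protein near the peptidyl transferase centre, was at 151.8, 169.6 and 185.1 CPM in FI3KO against 114.2, 137.9 and 144.3 CPM in WT (0.35, SE 0.074, adjusted p = 0.00328), and it was called in every alternative tried. Rps6, the substrate of the S6 kinases, had a log2 fold change of 0.33, as did Rps14. Fau, which encodes a ubiquitin-like protein fused to a small-subunit protein, was at 66.6, 72.5 and 78.8 CPM against 55.6, 60.5 and 63.0 CPM (0.29). The remaining called members had values from 0.14 (Rpl7) to 0.34 (Rps15).

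Rpl10a, the tagged protein, was at 616.5, 703.4 and 817.9 CPM in FI3KO against 602.4, 627.5 and 654.5 CPM in WT (log2 fold change 0.19, SE 0.064, adjusted p = 0.0374). Its groups overlap and the call was lost in 21 alternatives. Rps27 had a large value that was not called (0.72, SE 0.349, adjusted p = 0.121), and one WT library stood far below the others, at 2.52 CPM against 20.03 to 26.9 CPM. In that library, WT TRAP replicate 6, 79 reads were assigned to Rps27 and 595 to the near-identical Rps27rt, and with the reads of both genes added the log2 fold change was 0.51 (adjusted p = 0.000959). Without that library Rps27 had a value of 0.48 (adjusted p = 0.0022). Among the reference genes Rpl13a and Rpl19 (0.24) were called higher and Rplp0, Rps18, Rpl4 and Rpl32 were not.

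**Figure D4:**
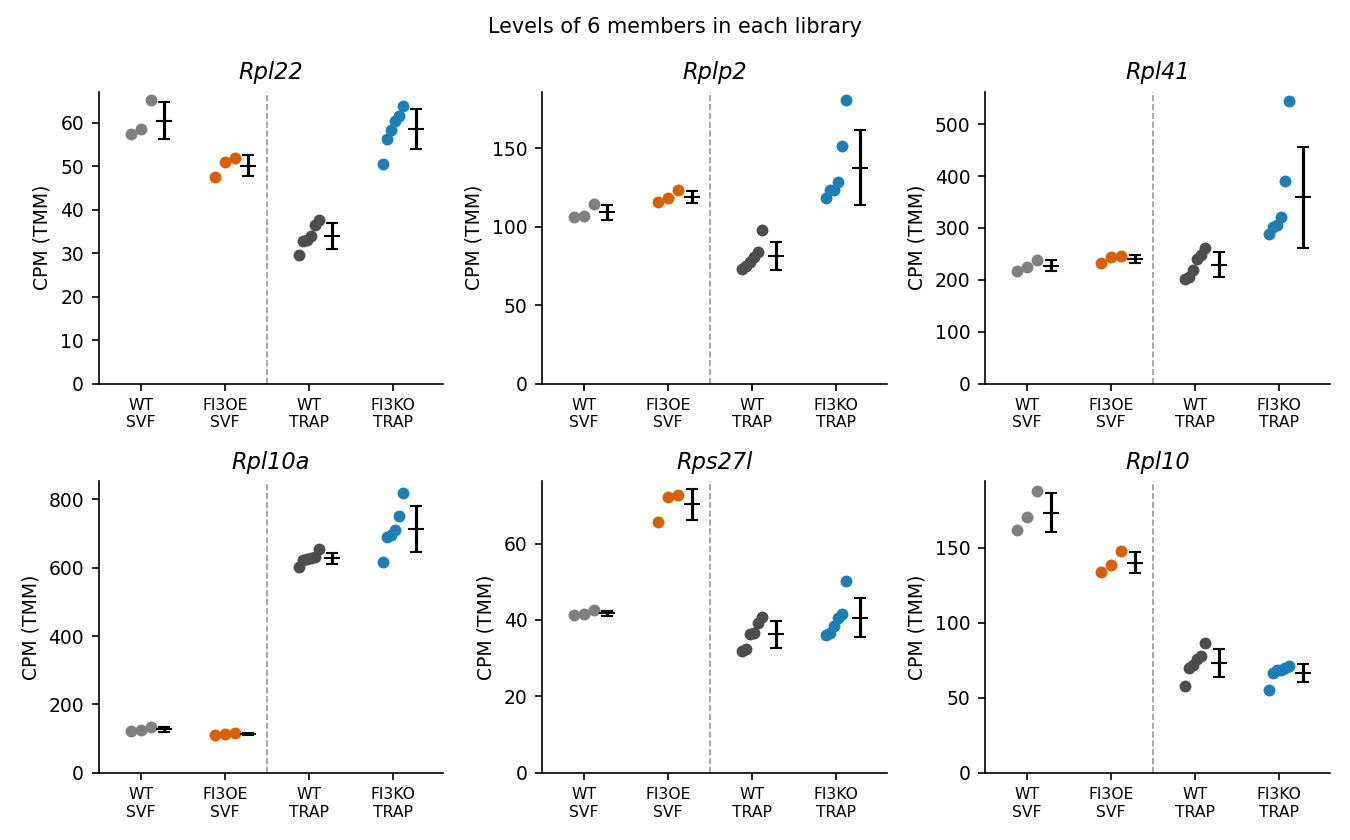
CPM of Rpl22, Rplp2, Rpl41, Rpl10a, Rps27l and Rpl10 in every library, with bars for mean ± SD. SVF and TRAP libraries were scaled separately, so that levels compare only on the same side of the dashed line. Rpl22 is lower in FI3OE than in WT and higher in FI3KO TRAP than in WT TRAP, and Rps27l differs in the SVF-derived adipocytes.

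Short genes tended to have higher fold changes than long ones in the TRAP comparison, and the members are short. Across the 81 members log2 fold change and length had a Spearman rho of -0.35, as a description across genes. Over all 13624 genes tested it was weaker, at -0.084. In the shortest 27 members (353 to 560 nt) the median log2 fold change was 0.25, and 194 other genes of that length had 0.26, while 13 of the 27 members and 32.0% of the other genes were called higher. In the middle 27 (560 to 740 nt) it was 0.12 against 0.16 in 330 other genes, with 11 of 27 members and 27.0% of the other genes called higher. In the longest 27 (744 to 1695 nt) it was 0.16 against 0.05 in 3472 other genes, with 11 of 27 and 21.5% called higher. When each library's trend on length was removed, the median of all members tested became 0.03, 14 were called higher (17.3%, against 18.1% of all genes in the same fit; all 14 are among the 35) and 1, Rpl10, was called lower (-0.30, adjusted p = 0.0295). Rpl22 (0.70), Rplp2 (0.50, adjusted p = 0.000354), Rpl41 (0.39, adjusted p = 0.0109), Rps21 (0.34), Rpl3 (0.31, adjusted p = 0.00603), Rplp1 (0.30) and Rps28 (0.26) were still called. All 35 values stayed above 0, but 21 were no longer called, among them Fau (0.07, adjusted p = 0.185) and Rpl10a (0.06).

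**Figure D5:**
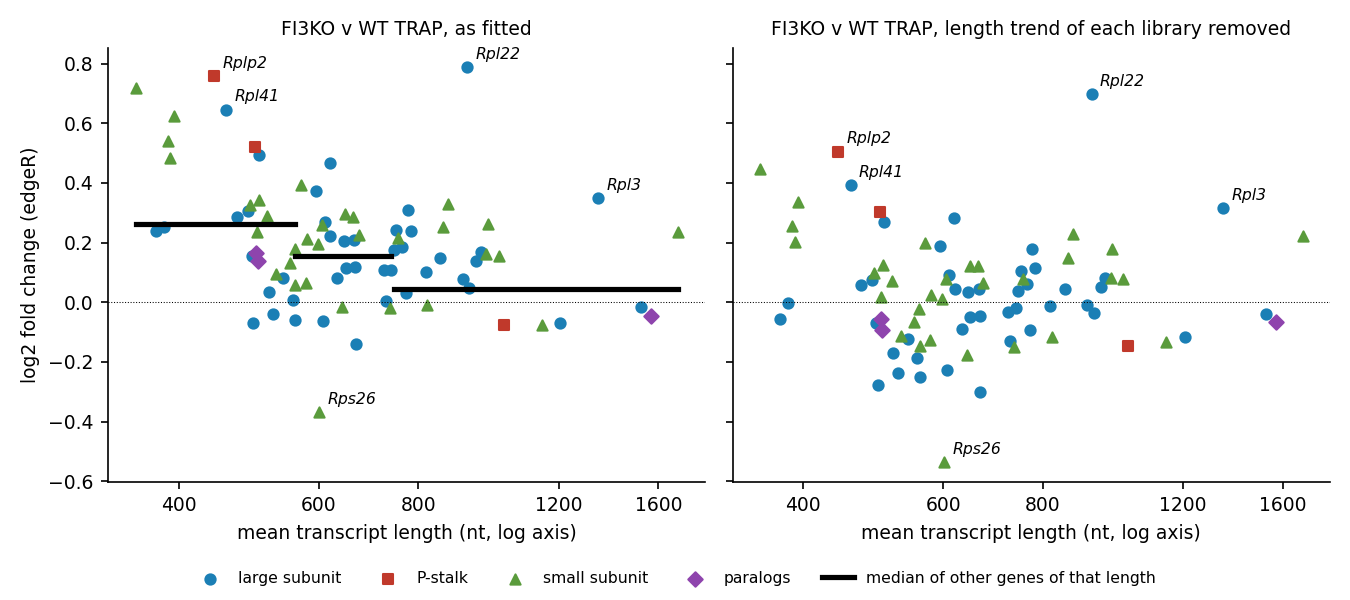
Log2 fold change of members in FI3KO against WT TRAP by mean transcript length (log axis), as fitted on the left and with each library's length trend removed on the right. Black bars are the median of other genes of that length. The bars fall from 0.26 to 0.05 with length on the left, and Rpl22 and Rplp2 stay above the rest on the right.

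The markers and library sets that moved with the genotype were set beside these counts. The lower sums of macrophage markers in FI3KO TRAP accompany the rises of the members. Sums of fibroblast markers overlapped between the groups, with 1 of 8 markers higher and 3 lower. The part of either list in the result was not tested. With replicates 3 to 6 alone 32 members were called higher, 1 lower (Rpl10, -0.25, adjusted p = 0.0307) and the median was 0.15. With replicates 1 and 2 alone 2 were called higher, 0 lower, and the median was 0.26. The fit of replicates 1 and 2 holds fewer libraries, so the counts of these fits do not compare. The difference between the sets itself passed for 2 of 81 members where it passed for 26.5% of all genes. These were Rps16 (0.34 in replicates 1 and 2 and -0.06 in 3 to 6, adjusted p = 0.0379) and Rpl22l1 (0.50 and -0.01, adjusted p = 0.0381). With 1 library left out that count was 11 without FI3KO replicate 2, 3 without FI3KO replicate 4, 2 without WT replicate 3 or 6, 1 without FI3KO replicate 1 or WT replicate 4 and 0 without any of the other 6 libraries. The difference was not fitted with WT replicates 1 and 2 summed.

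The comparisons with active and with deleted IRF3 use different cells, RNA and libraries, so they were only set side by side. Of the 13 members lower in FI3OE, 7 were higher in FI3KO TRAP, which is 53.8% of the former list and 7 of the 35 in the latter, where 26 of the 62 members not called in FI3OE (41.9%) were higher in FI3KO TRAP too. Rpl10a, Rpl22, Rpl3, Rps25, Rps3a1 and Rps6 were among them. Of the 6 members higher in FI3OE, 2 were higher in FI3KO TRAP (Rplp2 and Rps19), which is 33.3% and 5.71% of these lists. Over the 81 members tested in both the log2 fold changes had a correlation of -0.025, as a description across genes that share libraries. The 14 members with a C at the annotated start and 4 pyrimidines after it had a median log2 fold change of 0.21 in TRAP. Of these 14, 5 were called higher. The other 47 with a start in the table had 0.17, and 21 of the 47 were called higher. Over all genes tested 19.1% were. With the length trend removed these medians were -0.02 and 0.03.

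WT TRAP and WT SVF-derived adipocytes differ in depot, culture, diet and transgenes. As the labels' library text reads, they also differ in the RNA isolated (their extraction text describes TRAP for all samples). Of the cell markers, 11 of 12 for macrophages and 6 of 8 for fibroblasts and progenitors were lower in WT TRAP, with 1 higher in each list. All 10 adipocyte markers were higher there. These differences cannot be told apart, and the values place the members' levels in the data. Of 82 members tested, 68 were lower in WT TRAP (82.9%) where 42.1% of all 16454 genes tested were, and 7 were higher (8.54%) where 38.1% were. Past an absolute log2 fold change of 1 were 24 members, 23 of them lower, where 46.9% of all genes were past it. The median log2 fold change was -0.61 for members and -0.07 for all genes, and -1.07 against -0.53 when libraries were scaled to their totals. With the length trend removed the median of members was -0.29. In that fit 47 members were lower (57.3%, against 36.7% of all genes) and 15 higher (18.3%, against 44.4%). Of the members called lower in the main fit, 8 then had values above 0.

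Rplp0, the highest member in WT SVF-derived adipocytes, had the largest fall after Rpl39l. It was at 2305, 2529 and 2389 TPM in WT SVF-derived adipocytes and at 424.8, 459.3 and 575.8 TPM (lowest, median, highest) in WT TRAP, a log2 fold change of -1.99 (SE 0.088, adjusted p = 8.38e-09). Fold changes here are of TMM-scaled counts, so they differ from ratios of TPM. Rpsa, the laminin-receptor-like protein of the small subunit, was at 1214, 1235 and 1290 TPM against 328.7, 382.8 and 434.9 TPM (-1.40). Neither gene has overlapping groups. Rpl12 (-1.83), Rps26 (-1.64) and Rps24 (-1.42) were also among the largest falls. Rplp1 fell (-1.10) and Rplp2 was not called (0.05, adjusted p = 0.604). Of the 6 reference genes 5 were lower in WT TRAP.

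Rpl10a alone passed the fold cutoff upward, from 530.7, 559.0 and 580.5 TPM in WT SVF-derived adipocytes to 2860, 2992 and 3326 TPM in WT TRAP (log2 fold change 2.78, SE 0.062, adjusted p = 1.15e-10). Rpl22l1 (0.49, adjusted p = 0.00809), Rpl41 (0.49, adjusted p = 0.000410), Rpl7l1 (0.28), Rpl38 (0.28), Rps27l (0.27) and Rps21 (0.21) were called higher too. Of these Rpl7l1, Rpl38, Rps21 and Rps27l turned to values below 0 when libraries were scaled to their totals, and Rpl10a was then the 1 member called higher.

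Lists of other genes of translation were set beside the members. Mitochondrial ribosomal proteins, which are nuclear-encoded but work in another compartment, had 29 of 78 higher (37.2%, against 19.1% of all genes) and 2 lower (2.56%, against 18.3%) in FI3KO TRAP (median 0.15), with Mrps15 (0.55), Mrps35 (0.49) and Mrps24 (0.45) the largest. In FI3OE they had 21 higher (26.9%, against 20.2%) and 5 lower (6.41%, against 16.8%; median 0.09), led by Mrpl27 (0.51) and Mrps18c (0.45), and in WT TRAP against WT SVF-derived adipocytes 48 higher (61.5%, against 38.1%) and 10 lower (12.8%, against 42.1%; median 0.36). Of 21 translation factors and partners, many of them known TOP mRNAs, 4 were higher (19.0%) and 3 lower (14.3%) in FI3KO TRAP, near the shares of all genes. Eif4a2, an RNA helicase of initiation, rose (0.68) and Pabpc1, the poly(A)-binding protein, fell (-0.28). In FI3OE 4 of these were higher and 4 lower (19.0% each), again near the shares of all genes, with Pabpc1 higher (0.57) and Eif4b lower (-0.29), and in WT TRAP against WT SVF-derived adipocytes 3 were higher (14.3%) and 15 lower (71.4%, against 42.1% of all genes).

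Genes of ribosome biogenesis were more often lower than higher in FI3OE. There 14 of 36 were lower (38.9%, against 16.8% of all genes) and 1 was higher, where 20.2% of all genes were. The median was -0.16, with Gnl3 (-0.36) and Dkc1 (-0.34) the largest falls and Polr1c (0.31) the rise. In FI3KO TRAP 7 were lower (19.4%, against 18.3% of all genes) and 3 were higher, where 19.1% of all genes were. Dkc1 was higher (0.57) and Wdr12 (-0.51) and Rrp12 (-0.49) were lower. Among 21 genes that control translation through mTOR, LARP1 and eIF2, 8 were lower (38.1%, against 16.8% of all genes) and 4 higher (19.0%, against 20.2%) in FI3OE. The pseudokinase Trib3, a target of the integrated stress response, fell most (-1.95), followed by the eIF2 kinase Eif2ak3 (-0.64), while Eif2ak2, the interferon-induced eIF2 kinase PKR, rose (0.58). In FI3KO TRAP 4 of the 21 were lower (19.0%, against 18.3% of all genes) and 3 higher (14.3%, against 19.1%), near the shares of all genes, with Eif4ebp1 (0.34) and Eif4ebp2 (0.31), repressors of cap-dependent initiation, higher and Eif2ak4 (-0.31) lower.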

How the data were processed

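The authors prepared Ribo-Zero-depleted RNA as Nextera XT libraries (12 PCR cycles), demultiplexed the reads with bcl2fastq 2.20.0, filtered them with fastp 0.20.1 (reads under 24 nt removed) and quantified them with Salmon 1.4.0 on GENCODE M24 with correction for sequence and GC bias. The libraries are not stated to mark the strand. Each deposited table gives, for 118733 transcripts, the authors' estimated counts (expected counts, not normalized) and TPM. The submitters' processing notes name GRCm38. Here 117850 transcripts (99.3%) were assigned to genes with GENCODE M21. The rest, which held 0.37 to 1.08% of reads, were kept as genes of their own. Expected counts were summed per gene and rounded.

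In R 4.3.3, edgeR 4.0.16 (filterByExpr, TMM, quasi-likelihood test, two-sided, Benjamini-Hochberg adjustment over all genes tested) was fitted to each comparison on its own without covariates. A gene was called at an adjusted p of at most 0.05. TPM were used for levels between genes. In tests on simulated data, 41.8% of genes with a log2 change of 0.3 were recovered for FI3OE and WT SVF-derived adipocytes and 6.06% for TRAP, against 93.9% and 89.2% at 1.5. False calls were 11 and 4. Few genes were changed in the simulation (66 of 13552 at 0.3 for TRAP), drawn from all levels. In the TRAP data 5095 of 13624 genes were called. The rates therefore do not say how often changes in the members are found. Precision is limited by 3 and 6 libraries a group. The members and lists were chosen with earlier results of these data known.

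Genes were named by rule, as the 5 largest rises and falls among called members, the 5 highest and lowest levels, the stalk genes, Rpl10a, Rpsa, Fau, paralogs, qPCR references and the 3 largest called changes of each other list, with further members of small counts named after their values were seen. The alternatives were DESeq2's size factors and the Wald test of DESeq2 1.42.0, library totals, other filters, an average transcript length offset, robust dispersion, removal of mitochondrial and rRNA-like genes, removal of length trends, all 18 libraries in one fit, a replicate block, replicates 1 and 2 or 3 to 6 and each library left out. Chosen after seeing the data were the length and GC trend, Rps27rt reads added to Rps27, and WT TRAP replicates 1 and 2 summed. The closest libraries, WT TRAP replicates 1 and 2, differed by more than counting noise (chi-square per degree of freedom 2.54, next closest TRAP pair 8.41), which does not show that they are separate mice. They were counted as 2, as labelled, and summed as an alternative. The labels' extraction text describes TRAP for all samples, and the SVF-derived adipocyte RNA, which their library text names apart, was taken as not immunoprecipitated. Lists of endothelial, mesothelial, T cell and B cell markers were measured as well. Start windows came from RefSeq GRCm38.p6. Proteins, lipids and qPCR were not used here. Some genes that the rule names are not reported here.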

Additional observations from a re-analysis of the deposited data

Results flagged for a closer look

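In 58 sets of 6 TRAP libraries tested for 1 library far from the others, 6 sets had such a library, where chance gives about 1 in 20. Replicate 3 of WT TRAP was the highest for Rplp0 (188.3 CPM against 140.7 to 153.8 CPM in the others), Rpl32 (52.2 against 32.4 to 37.4 CPM) and Rps4x (143.1 against 122.3 to 128.1 CPM). Replicate 5 of WT TRAP was the highest for Rps21 (17.7 against 13.9 to 14.5 CPM). Replicate 6 of WT TRAP was the lowest for Rps27 (2.52 against 20.03 to 26.9 CPM), and 595 reads of that library were assigned to Rps27rt. Replicate 3 of FI3KO TRAP was the lowest for Rpl10 (55.3 against 66.8 to 70.9 CPM).

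The effect of FI3KO on Rpl22l1 differed between TRAP replicates 1 and 2 and replicates 3 to 6 by 0.50 on the log2 scale (adjusted p = 0.0381, interaction term in edgeR). Without WT replicate 1 or WT replicate 2 such a difference passed for 0 members.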

How the results depend on the processing

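In FI3OE the count of lower members was 8 with no filter on low counts, 6 with an average transcript length offset and 0 with all 18 libraries in one fit, which gave 2 higher. With a library left out it ranged from 6 (without FI3OE replicate 1 or WT replicate 3; 7 without FI3OE replicate 3) to 19 (without FI3OE replicate 2), the higher count from 5 to 6 and the median from -0.062 to -0.00455. In FI3KO TRAP the higher count was 21 with library totals, 14 with the length trend removed, 14 with the length and GC trends removed, 13 with the replicate block and length trend together and 2 in replicates 1 and 2. Rpl10 was the 1 member lower with the length trend removed, with length and GC (-0.30), in replicates 3 to 6 and without WT replicate 1 (-0.21, adjusted p = 0.0420). The median was 0.034 with the length trend removed, 0.020 with length and GC, 0.038 with the block and length trend and 0.263 in replicates 1 and 2. Leaving out a library gave 26 to 36 higher (26 without FI3KO replicate 4), 0 to 1 lower and medians of 0.148 to 0.206. The interaction passed for 1 member with library totals and 6 with the length trend removed, and for 0 to 11 with a library left out (11 without FI3KO replicate 2). In WT TRAP against WT SVF the higher count was 1 with library totals, 2 with at least 10 counts in every library, 15 with the length trend removed and 12 with length and GC, and the median was -1.07, -0.78, -0.29 and -0.37. Of the 75 members called there 4 turned in sign with library totals, 8 with the length trend removed and 5 with length and GC. Among the members that the rule names in this comparison, called or not, reversed values were those of Rpl38 (-0.18), Rpl7l1 (-0.18), Rplp2 (-0.41) and Rps27l (-0.19) with library totals, Fau (0.13), Rpl19 (0.19), Rpl36a (0.44) and Rpl39 (0.11) with the length trend removed, and Rpl36a (0.44) and Rpl39 (0.11) with length and GC. Library totals moved the median of all genes from -0.07 to -0.53 and the length trend to 0.13. The causes were not tested. The share of reads was 1.35% in FI3OE and 1.396% in WT SVF without rRNA-like and mitochondrial reads, and as TPM 5.09, 5.41, 3.29 and 2.93% in FI3OE, WT SVF, FI3KO TRAP and WT TRAP, with 1.28% in FI3OE when pseudogenes were added. Replicate numbers did not pair the samples (correlations of deviations -0.44 to 0.12). With the replicate block 5 members were higher and 10 lower in FI3OE, and 27 higher and 0 lower in FI3KO TRAP. Rps27l and Rpl9 in FI3OE and Rpl3 in FI3KO TRAP were called in every alternative. In simulated data 6.06% of changes of 0.3 on the log2 scale were recovered for TRAP and 41.8% for FI3OE against WT, so that changes of this size can be missed. Far fewer genes were changed there than were called in the data, so these rates do not carry over to the members.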

Other observations

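Endothelial markers summed to 29.5 to 133.8 TPM in FI3KO TRAP and 30.2 to 54.2 TPM in WT TRAP, and 1 of the 7 tested was higher in FI3KO. Mesothelial markers summed to 2.72 to 13.7 and 3.09 to 28.0 TPM in these groups, and T and B cell markers to at most 1.38 TPM in any library of the series. TATAAA between 50 and 20 bases before the start was found in 1 of 64 members, Rpl22l1, and in 2.63% of all genes. CTTTCC on the coding strand of the 30 bases around the start was found in 10 members (15.6%) and in 1.67% of all genes, and CTCTTTCC, which contains it, in 3 members (Rpl18, Rpl28 and Rpl35a).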
